A study of Mus musculus and Homo sapiens with 24 samples.

Results

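The data described here follow the first day of differentiation of C2C12, an established mouse myoblast line. Messenger RNA captured on poly-T beads was sequenced in 4 libraries at day 1, which are set against 4 libraries at day 0. All 8 libraries are labelled skeletal myoblast with the genotype control, and the labels name no treatment, culture medium, batch or date. These are 8 of the 24 libraries of the series. The others are 4 C2C12 libraries at day 6, which shared the fit, and 12 of the human line LHCN-M2, not used here. Whether the 4 libraries of a day came from separate cultures is not stated, and the p-values therefore reflect library-to-library spread that may be only technical. Every gene row was a candidate: of 56748 rows, 17065 held enough reads to be tested. Levels are CPM, the count of a gene scaled to a common library total, and fold changes are on the log2 scale as day 1 over day 0. SD is over n = 4 libraries a day, and SE comes from the fit that the day 6 libraries shared. Adjusted p is that of edgeR's quasi-likelihood test over all 17065 genes. A gene is said to rise or fall where its adjusted p is under 0.05.

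Myoblasts in culture divide until they are crowded or their growth factors are withdrawn. They then express myogenin, leave the cell cycle, align and fuse into myotubes. Genes outside the contractile apparatus are described here, by role: amino acid supply, stress, growth signalling, the cell cycle, matrix and adhesion, secreted factors and metabolism. A shortage of amino acids or unfolded protein in the endoplasmic reticulum raises translation of the transcription factor ATF4, which switches on enzymes, transporters and tRNA synthetases that restore the supply.

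Library totals were 38243536 to 43827517 counts at day 1 and 32795699 to 39597995 counts at day 0. The first principal component of log2 CPM held 52.7% of the variance and separated the days. Pairs of libraries of a day differed by more than sampling noise, with a chi-square per degree of freedom of 9.91 to 14.9 at day 1 and of 7.09 to 25.6 at day 0, where the pairs with replicate 1 gave 22.8 to 25.6. Of 8 muscle cell markers, 7 rose and 1 fell (median log2 fold change 0.97), and myogenin, Myog, averaged 13.7 ± 1.798 CPM at day 1 and 3.75 ± 0.281 CPM at day 0. Some defining markers of other cell types were near 0 on both days: the leukocyte gene Ptprc had 0.0115 against 0 CPM, the endothelial cadherin Cdh5 0.01201 against 0.0259 CPM, the adipocyte genes Adipoq 0.0257 against 0.0226 CPM and Plin1 0 against 0 CPM, the bone gene Ibsp 0 against 0 CPM and the smooth muscle myosin Myh11 0.167 against 0.223 CPM, at day 1 and day 0. Of the fibroblast markers, which myoblasts share in part, 6 of 13 tested rose and 5 fell, and their summed level was 16846 to 18444 CPM at day 1 and 17233 to 19822 CPM at day 0. Other markers on these lists were expressed. The adipocyte list summed to 83.4 to 89.6 CPM at day 1 and 139 to 159 CPM at day 0 (3 of 4 tested fell and 1 rose, or 0 without replicate 2 of day 0), and the smooth muscle list to 3148 to 3924 CPM at day 1 and 2238 to 2409 CPM at day 0 (4 of 6 rose and 0 fell). The neuronal list summed to 563 to 591 CPM at day 1 and 510.1 to 529 CPM at day 0 (7 of 13 rose and 2 fell), and the bone and cartilage list to 113 to 125 CPM at day 1 and 95.4 to 113 CPM at day 0. The immune list summed to 20.4 to 25.3 CPM at day 1 and 18.5 to 25.9 CPM at day 0 and the endothelial list to 0.312 to 0.927 CPM at day 1 and 0.531 to 0.809 CPM at day 0, and none of their 4 and 2 tested members changed, although 1 immune marker passed the test without replicate 1 of day 1 or replicate 1 of day 0. The part of these markers in the results below was not tested. In RNA from a whole culture, fewer cells of a type and less RNA per cell cannot be told apart.

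Many genes changed in the first day, most by a small amount. In all, 4421 genes rose (25.9% of those tested) and 4161 fell (24.4%), together 50.3%, with a median size of 0.50 among the genes that changed. Changes of at least 2-fold were rarer, with 838 genes (4.91%) higher and 964 (5.65%) lower. The median over all genes was -0.01, and the central 90% lay between -1.27 and 1.19. Among protein-coding genes 31.1% rose and 26.9% fell. Long noncoding RNAs leaned to loss, with 169 of 1843 (9.17%) higher and 346 (18.8%) lower. The 4 day 1 libraries did not overlap the 4 day 0 libraries in 45.7% of the genes tested. These shares are the background for each list and for each gene without overlap.

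**Figure D1:**
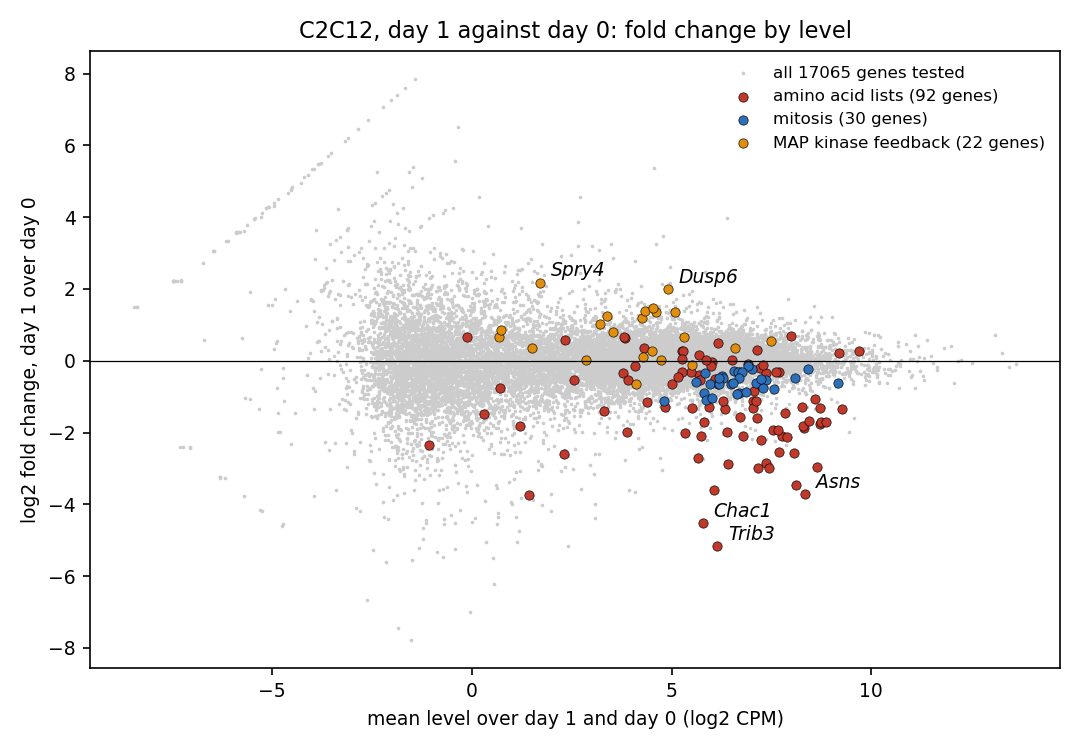
Each point is 1 of the 17065 genes tested, with its mean level over both days (log2 CPM, horizontal) and its log2 fold change of day 1 over day 0 (vertical). Genes of the amino acid lists lie mostly below 0, with 70 of 92 lower, whereas the genes of the MAP kinase feedback list lie mostly above 0, with 15 of 22 higher, and all 30 mitosis genes lie below 0.

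Genes of amino acid supply fell together. The 4 lists of stress regulators, synthesis enzymes, transporters and cytosolic tRNA synthetases hold 92 tested genes in all, of which 70 fell and 12 rose, against a background of 24.4% lower and 25.9% higher. 52 of the 92 fell at least 2-fold (background 5.65%), and the median log2 fold change was -1.29. Their summed level was 8084, 7919, 7856 and 8023 CPM in the day 1 libraries, against 18103, 18707, 18306 and 17743 CPM in the day 0 libraries. The sums of the days do not overlap, and as a share of the scaled library total they were 0.797% at day 1 and 1.82% at day 0.

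Among the stress regulators, 19 of 20 fell and 0 rose, with a median of -1.98 on the log2 scale. Atf4, which encodes the transcription factor at the head of the response, had 271, 234, 216 and 244 CPM in the day 1 libraries, against 649, 625, 573 and 569 CPM in the day 0 libraries. The days do not overlap (log2 fold change -1.32, SE 0.07, adjusted p = 1.09e-12). Trib3, a pseudokinase that binds ATF4 and AKT, had 4.07, 4.04, 2.601 and 4.71 CPM in the day 1 libraries, against 144, 154, 130.4 and 124 CPM in the day 0 libraries. The highest day 1 library was far below the lowest day 0 library, and among genes at 10 CPM or more no other fold change was lower (log2 fold change -5.17, SE 0.12, adjusted p = 1.16e-17). Chac1, an enzyme that breaks down glutathione, had 6.196, 3.99, 4.21 and 3.99 CPM in the day 1 libraries, against 107, 114, 91.9 and 110.2 CPM in the day 0 libraries, again with no overlap (log2 fold change -4.52, SE 0.12, adjusted p = 2.10e-17). Ddit3, the pro-apoptotic factor CHOP, fell by 2.09, Atf5 by 2.10 and Cars, which is also a tRNA synthetase, by 2.22 on the log2 scale. The translation repressor gene Eif4ebp1 averaged 81.6 ± 7.73 CPM at day 1 and 350.2 ± 32.1 CPM at day 0. The secreted members fell as well, with Fgf21 at 0.383 CPM at day 1 against 5.01 CPM at day 0, Gdf15 at 5.97 CPM at day 1 against 23.6 CPM at day 0 and Stc2 at 1.42 CPM at day 1 against 8.57 CPM at day 0. The member that did not pass the test, looked up after the values were seen, was the actin regulator Avil (4.82 CPM at day 1 against 7.01 CPM at day 0, adjusted p = 0.0819, and adjusted p = 0.0221 in a fit of the 8 libraries alone).

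The enzymes that make serine, glycine, asparagine, proline and cysteine, and that move folate-bound carbon in mitochondria, were lower too. Of 29 synthesis genes, 23 fell, 16 of them at least 2-fold, and 4 rose (median log2 fold change -1.13). Asparagine synthetase, Asns, had 54.5, 47.1, 40.3 and 41.7 CPM in the day 1 libraries, against 634, 610.0, 600.4 and 581 CPM in the day 0 libraries. Aldh1l2, the mitochondrial enzyme that oxidises formyl-tetrahydrofolate, had 44.7, 46.5, 41.7 and 51.3 CPM in the day 1 libraries, against 424, 599, 504 and 497 CPM in the day 0 libraries. In both genes the days are far apart (log2 fold change -3.72, SE 0.08, adjusted p = 2.38e-18 for Asns and log2 fold change -3.46, SE 0.09, adjusted p = 5.97e-17 for Aldh1l2). Cth, which makes cysteine from cystathionine, averaged 10.01 ± 1.49 CPM at day 1 and 123 ± 9.79 CPM at day 0. Pck2, the mitochondrial form of phosphoenolpyruvate carboxykinase, averaged 90.5 ± 4.01 CPM at day 1 and 701 ± 16.8 CPM at day 0. The mitochondrial folate enzyme Mthfd2 fell by 2.84, the proline enzyme Pycr1 by 2.70, and the serine pathway genes Psph and Psat1 by 2.87 and 1.76 on the log2 scale. Gpt2, the mitochondrial alanine transaminase, fell by 3.00.

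The transporters divided. Of 24 tested, 13 fell, 9 at least 2-fold, and 7 rose. Slc7a5, the light chain of the transporter of large neutral amino acids, had 32.8, 32.2, 33.3 and 30.4 CPM in the day 1 libraries, against 239.9, 268, 258 and 250.2 CPM in the day 0 libraries. Its partner Slc3a2, the heavy chain, averaged 88.04 ± 4.38 CPM at day 1 and 386 ± 10.6 CPM at day 0, and the days of both genes do not overlap (log2 fold change -2.98, SE 0.06, adjusted p = 1.91e-18 for Slc7a5 and log2 fold change -2.13, SE 0.05, adjusted p = 1.30e-17 for Slc3a2). The cystine carrier Slc7a11, the glycine carrier Slc6a9 and the cationic amino acid carrier Slc7a1 fell by 1.70, 2.03 and 1.57. The day 1 libraries of Slc7a11 were widely spread, at 19.5, 39.6, 35.4 and 10.8 CPM, so the size of its fall is less certain (SE 0.26). The taurine carrier Slc6a6 and the neutral amino acid carrier Slc38a2, which is abundant in these cells, rose by 0.70 and 0.28, with Slc38a2 at 913 CPM at day 1 against 753 CPM at day 0.

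Aminoacyl-tRNA synthetases charge each tRNA with its amino acid, and separate nuclear genes serve the cytosol and the mitochondrion. Of 20 cytosolic synthetase genes, 16 fell, 12 at least 2-fold, and 1 rose (median log2 fold change -1.33). Of 17 mitochondrial genes, 6 fell, none at least 2-fold, and 3 rose (median -0.13), and the difference between the lists was not tested. The summed level of the cytosolic list was 2648 to 2757 CPM at day 1 and 6278 to 6731 CPM at day 0. Cars, for cysteine, fell by 2.22, Mars1, for methionine, by 1.93, Aars, for alanine, by 1.88, and Eprs, the fused enzyme for glutamate and proline, by 1.36 on the log2 scale. Looking at the members outside the rule for named genes, Qars, Rars and Hars, for glutamine, arginine and histidine, did not pass the test (log2 fold changes -0.11, -0.09 and 0.03) and Farsa, a subunit of the phenylalanine enzyme, rose by 0.50, while its partner subunit Farsb fell by 0.51. These 5 were chosen after their values were seen.

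**Figure D2:**
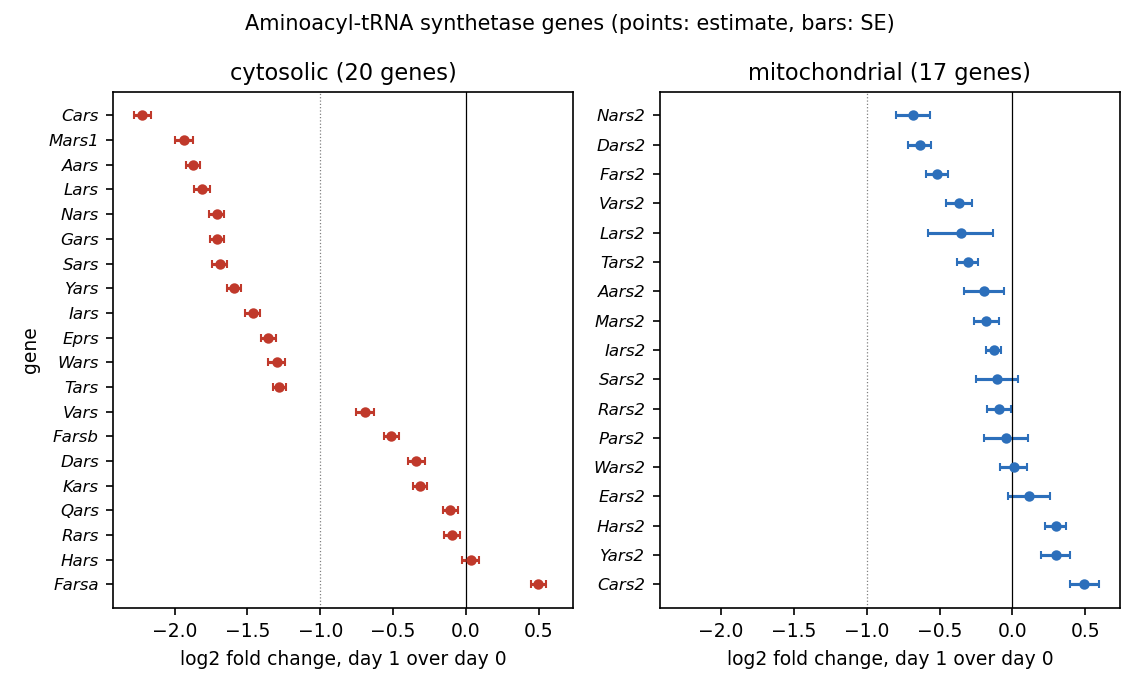
Log2 fold change of day 1 over day 0 with its SE for each tested aminoacyl-tRNA synthetase gene, cytosolic on the left and mitochondrial on the right, sorted by value. The cytosolic genes run from -2.22 for Cars to 0.50 for Farsa with 12 of 20 below -1, and none of the 17 mitochondrial genes lies below -1.

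ATF4 and its partners of the C/EBP family bind a composite element whose core is written here as TGATGNAA. Because so many of the amino acid genes moved in the same direction, the RefSeq promoters of GRCm38.p6 (250 bases before to 50 bases after each start) were searched for these letters on both strands. The core is in 3.97% of all 32851 promoters. Counted by gene, 17 of the 42 members with an entry that fell at least 2-fold hold it in at least 1 promoter, and 3 of the 28 other members do, against 326 of 11256 tested genes (2.90%). Of all genes that fell at least 2-fold, 46 of 603 hold it (7.63%), and of those outside the amino acid lists 29 of 561 (5.17%). Of the other lists searched, none of 14 mitochondrial synthetase genes, 25 mitosis genes and 17 MAP kinase feedback genes hold it. Lists this small can hold none at the 2.90% share over tested genes, so these counts give no contrast. A match is a description of the sequence, not of a bound site. The stress list, where 8 of 18 genes with an entry hold the core, was made of genes of the response that ATF4 heads. A high share there may therefore follow from how the list was chosen, and the members were divided by the fold changes already described. A part of ATF4 in these falls was not tested. The windows below show 30 bases around the core, 5′ to 3′ on the strand that reads TGATGNAA, with the core in capitals, for the members described above that hold it before their start. They include Avil, which did not pass the test. Aars also holds it before its start, and its window is not shown. For Slc7a11, which holds it more than once, the window farthest before the start is shown.
Asns (chr6:7693214-7693243, minus strand, core from 23 bases before the start): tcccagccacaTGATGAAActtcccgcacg
Chac1 (chr2:119351038-119351067, minus strand, core from 193 bases before the start): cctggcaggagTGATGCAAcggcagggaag
Avil (chr10:127000681-127000710, plus strand, core from 17 bases before the start): gaatgtggttaTGATGCAAacacaagcaaa
Pck2 (chr14:55540152-55540181, minus strand, core from 103 bases before the start): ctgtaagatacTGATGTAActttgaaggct
Pycr1 (chr11:120643833-120643862, minus strand, core from 103 bases before the start): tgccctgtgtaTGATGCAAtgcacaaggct
Fgf21 (chr7:45615611-45615640, plus strand, core from 139 bases before the start): gcctggacggaTGATGCAAtgggggggtct
Slc7a11 (chr3:50443661-50443690, minus strand, core from 66 bases before the start): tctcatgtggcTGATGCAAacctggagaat
The N of the core is A, C or T in these windows. The window of Trib3 holds the core 15 bases after its start (chr2:152344028-152344057, plus strand), and the promoters in the table for Gpt2, Psph, Psat1, Mthfd2, Slc3a2, Atf5 and Ddit3 do not hold these letters.

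**Figure D3:**
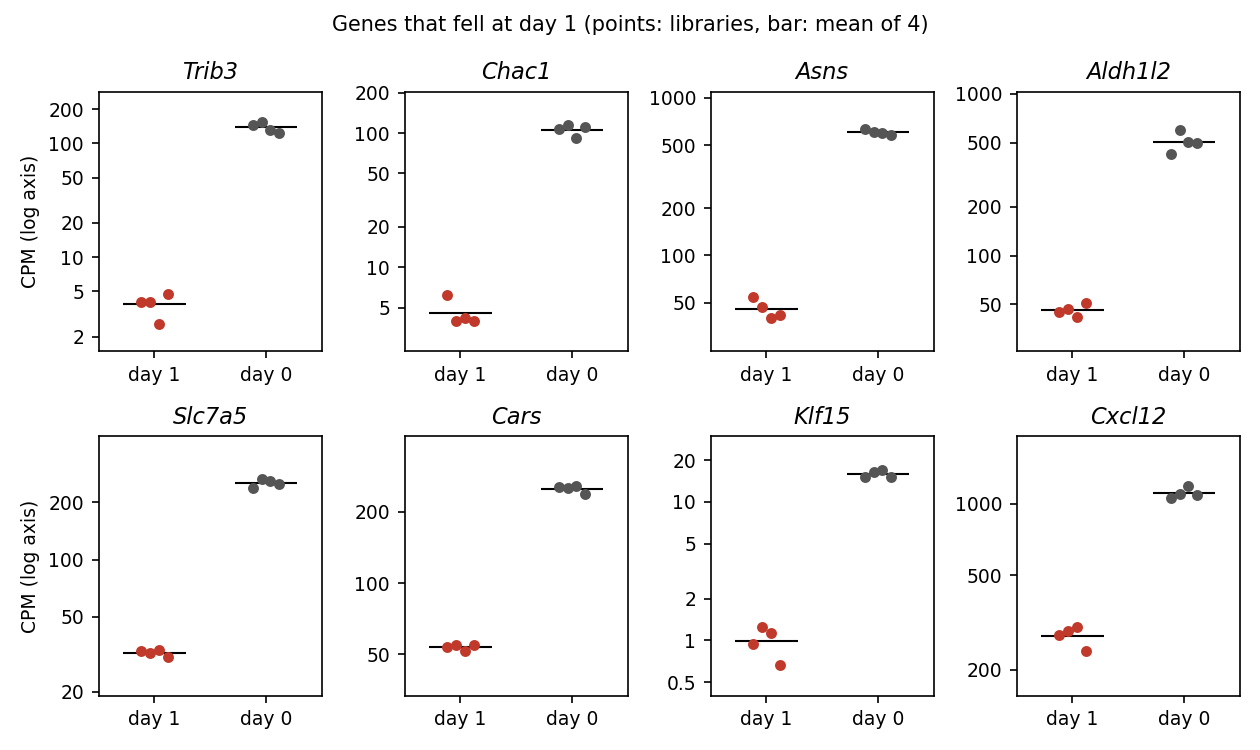
CPM of each library on a log axis for 8 genes that fell, day 1 at the left and day 0 at the right of each panel, with the mean of the 4 libraries as a bar. In all 8 genes the 4 day 1 libraries lie below the 4 day 0 libraries, for example 40.3 to 54.5 against 581 to 634 CPM for Asns.

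At day 6 many of these genes were above their day 1 level. Every cytosolic synthetase gene but Qars and Vars was higher at day 6 than at day 1 (adjusted p under 0.05). Qars and Vars were lower (log2 fold changes -0.15 and -0.61, day 6 over day 1). Asns stood at 149.9 ± 7.53 CPM at day 6 and 45.9 CPM at day 1 (log2 fold change 1.71, adjusted p = 5.47e-14, day 6 over day 1), and Trib3 at 14.1 ± 1.21 CPM and 3.85 CPM (log2 fold change 1.87, adjusted p = 3.52e-11). Other members were lower again at day 6: Cth stood at 6.29 CPM at day 6 and 10.01 CPM at day 1 (log2 fold change -0.68, adjusted p = 3.62e-05), and Pycr1 at 9.35 CPM and 13.6 CPM (log2 fold change -0.54, adjusted p = 1.62e-05).

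Several other genes of stress and nutrient sensing fell. Txnip, a glucose-induced inhibitor of thioredoxin, had 77.8, 83.1, 69.1 and 78.01 CPM in the day 1 libraries, against 388, 389.6, 408 and 380.2 CPM in the day 0 libraries, with no overlap (log2 fold change -2.35, SE 0.07, adjusted p = 2.35e-16). Hspa9, the mitochondrial HSP70, was among the 10 largest losses in CPM, with 381 ± 5.78 CPM at day 1 and 1144 ± 63.7 CPM at day 0. Herpud1, a part of endoplasmic reticulum protein disposal, averaged 50.1 ± 4.89 CPM at day 1 and 139 ± 4.13 CPM at day 0, although the list of endoplasmic reticulum chaperones as a whole was mixed, with 10 of 23 higher and 7 lower. Among C/EBP and hypoxia regulators 13 of 22 fell and 2 rose (median -0.49). The count that rose was 5 without replicate 3 of day 1, and 4 and 1 without replicates 1 and 2 of day 0. The angiogenic factor Vegfa averaged 133 ± 6.98 CPM at day 1 and 331 ± 13.7 CPM at day 0, Cebpd 9.597 CPM at day 1 against 36.8 CPM at day 0, and Hif1a, the oxygen-regulated factor, 277 CPM at day 1 against 387 CPM at day 0. Of the NRF2 targets and iron genes, 15 of 28 fell and 6 rose. Iron uptake and storage genes moved in opposite directions: the transferrin receptor Tfrc rose to 80.5 CPM at day 1, against 26.6 CPM at day 0, while the ferritin light chain Ftl1 averaged 228 CPM at day 1 against 429 CPM at day 0 (log2 fold changes 1.60 and -0.92). Among glutathione transferases 7 of 22 fell and 0 rose (1 without replicate 4 of day 0). Near-identical members of that family may share reads.

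Carbonic anhydrases interconvert carbon dioxide and bicarbonate. Of the 10 tested, 4 fell, all at least 2-fold, and 2 rose (median log2 fold change -0.31). Car6, the secreted form, had 0.134, 0.504, 0.253 and 0.257 CPM in the day 1 libraries, against 10.9, 10.7, 11.5 and 8.12 CPM in the day 0 libraries, a loss with no overlap (log2 fold change -5.16, SE 0.42, adjusted p = 2.81e-09). Car12 and Car9, membrane forms, fell by 3.03 and 1.93 on the log2 scale. A set of near-identical genes that the table names Eif1ad with a number fell together. All 14 numbered copies tested were lower by at least 2-fold (median log2 fold change -3.63), and their summed level was 32.4 to 35.0 CPM at day 1 and 251 to 276 CPM at day 0. Eif1ad8 had 2.48, 2.45, 2.28 and 2.75 CPM in the day 1 libraries, against 34.1, 29.4, 34.6 and 27.6 CPM in the day 0 libraries, with no overlap (log2 fold change -3.66, SE 0.15, adjusted p = 6.31e-14). Copies this alike may share reads, so the count of 14 is not of independent measurements. The gene without a number, Eif1ad, which was looked up after the copies were seen, averaged 25.1 CPM at day 1 against 27.4 CPM at day 0 and did not pass the test (adjusted p = 0.191). The copies make up 14 of the 17 initiation factor genes that fell at least 2-fold among 69 tested, so that count says little of the translation machinery. Genes that were near 0 at day 1 after at least 1 CPM at day 0 numbered 17, and 6 genes showed the reverse. Wt1, a transcription factor of the mesothelium and kidney, averaged 0.0364 CPM at day 1 against 2.89 CPM at day 0, and Kcnma1, a calcium-activated potassium channel, 0.07997 CPM at day 1 against 1.93 CPM at day 0. Lrp2, the endocytic receptor megalin, had 2 counts over the day 1 libraries and 275 over the day 0 libraries, a level 161-fold higher at day 0 (95% counting interval 44.2 to 1338).

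Genes of MAP kinase feedback rose more often than they fell. Sprouty, Spred and dual-specificity phosphatase genes are switched on by the MAP kinase ERK and restrain it, and Etv genes are its transcriptional targets. Of 22 tested, 15 rose, 9 at least 2-fold, and 1 fell (median log2 fold change 0.73). Dusp6, the phosphatase of cytoplasmic ERK, had 48.99, 48.6, 44.3 and 50.2 CPM in the day 1 libraries, against 14.3, 11.5, 10.04 and 12.3 CPM in the day 0 libraries, with no overlap (log2 fold change 1.99, SE 0.09, adjusted p = 2.70e-13). Spry4 had 5.95, 6.198, 4.74 and 4.63 CPM in the day 1 libraries, against 1.01, 1.09, 1.199 and 1.46 CPM in the day 0 libraries, also with no overlap (log2 fold change 2.18, SE 0.20, adjusted p = 1.91e-08). Dusp1 and Dusp4, nuclear phosphatases, rose by 1.35 and 1.34, Spry2 by 1.18, and the factors Etv1 and Etv4 by 1.23 and 1.40. Dusp10 did not pass the test (43.6 CPM at day 1 against 47.3 CPM at day 0). Il17rd, another antagonist of FGF signalling, from the interleukin receptor family, averaged 37.4 ± 2.56 CPM at day 1 and 13.6 ± 2.19 CPM at day 0, and Irs1, the docking protein of the insulin and IGF receptors, 165 ± 7.83 CPM at day 1 and 61.9 ± 13.6 CPM at day 0. Both rose (log2 fold changes 1.46 and 1.42). Growth factor genes themselves were divided: of 28 in the list of FGF, PDGF, HGF and VEGF 8 rose and 10 fell, and of 12 EGF family ligands and receptors 3 rose and 1 fell. The EGF family genes that rose numbered 6 and 5 without replicates 1 and 3 of day 0.

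The immediate early genes, which answer serum, growth factors and handling within minutes, were divided, with 12 of 25 higher and 6 lower. Egr3, a zinc finger factor, had 29.1, 32.4, 29.9 and 26.9 CPM in the day 1 libraries, against 3.66, 3.95, 3.87 and 5.601 CPM in the day 0 libraries. The day 1 libraries are all higher (log2 fold change 2.79, SE 0.12, adjusted p = 1.42e-13). Egr2, Arc and Jun rose by 2.01, 2.49 and 1.12, while Ier3 fell by 0.82 and Junb did not pass the test (86.8 CPM at day 1 against 80.3 CPM at day 0), though it did without replicate 2 of day 1 (adjusted p = 0.0264) or replicate 1 of day 0 (adjusted p = 0.0283). The list of JAK-STAT receptors, STATs and SOCS was near the background, with 8 of 29 higher (5 without replicate 3 of day 1) and 10 lower. Socs2, an inhibitor of cytokine signalling, had 21.03, 22.7, 18.3 and 21.95 CPM in the day 1 libraries, against 103, 97.6, 94.6 and 90.5 CPM in the day 0 libraries. The days do not overlap (log2 fold change -2.20, SE 0.07, adjusted p = 3.76e-16), and Cish and Pim1, other targets of STAT5, averaged 1.08 CPM at day 1 against 3.19 CPM at day 0 and 10.3 CPM at day 1 against 23.1 CPM at day 0, while Stat3 rose by 0.22. Il6 itself averaged 1.07 ± 0.325 CPM at day 1 and 4.56 ± 0.656 CPM at day 0.

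The cell cycle genes did not move as a block. All 30 of 30 mitosis genes fell, 3 of them at least 2-fold (median log2 fold change -0.61). Cdc25c, the phosphatase that activates CDK1, averaged 17.8 ± 1.27 CPM at day 1 and 38.6 ± 2.75 CPM at day 0, and Aurkb, a kinase of the chromosomal passenger complex, 39.3 ± 2.99 CPM at day 1 and 73.4 ± 2.16 CPM at day 0. The most abundant member, topoisomerase Top2a, averaged 453 ± 17.01 CPM at day 1 and 699.6 ± 26.4 CPM at day 0, and the proliferation marker Mki67 315 ± 18.3 CPM at day 1 and 369.6 ± 32.1 CPM at day 0 (log2 fold change -0.23, adjusted p = 0.0203). The call on Mki67 was lost when any library but replicate 1 of day 0 was left out (adjusted p = 0.0533 to 0.160), and 27 or 28 of the mitosis genes fell with 1 library left out. Genes of the G1 phase rose more often than they fell, with 11 of 20 higher and 2 lower (1 lower with any 1 of 5 libraries left out: replicates 2 and 3 of day 1, and replicates 1, 3 and 4 of day 0). Cyclin D1, Ccnd1, had 183, 185, 178 and 171 CPM in the day 1 libraries, against 86.6, 81.9, 80.7 and 92.5 CPM in the day 0 libraries, with no overlap (log2 fold change 1.07, SE 0.05, adjusted p = 1.18e-12). E2f2, an activator of S phase genes, averaged 13.8 ± 0.333 CPM at day 1 and 3.55 ± 0.298 CPM at day 0, and cyclins E1 and E2, Ccne1 and Ccne2, rose by 1.01 and 1.28. Of 8 CDK inhibitor and GADD45 genes, 6 fell and only Cdkn1a, which encodes p21, rose (147 ± 6.46 CPM at day 1 and 113 ± 7.24 CPM at day 0). Gadd45a fell by 1.86 and Cdkn1b, which encodes p27, by 0.40 on the log2 scale.

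Histone genes fell more often than they rose. Of 35 genes matched by the histone family, 13 fell, 10 at least 2-fold, and 3 rose. The count that fell was 4 when at least 1 CPM in 4 libraries was asked for. H1f0, the linker histone gene that makes a polyadenylated message, had 256, 257, 276 and 258 CPM in the day 1 libraries, against 646, 627, 681 and 624 CPM in the day 0 libraries, with no overlap (log2 fold change -1.30, SE 0.05, adjusted p = 1.99e-14). Messages of most replication-dependent histones end without a poly-A tail, so poly-T capture measures them poorly. Genes of ribosome assembly and of the ribosome itself moved in opposite directions. Of 41 ribosome biogenesis genes 21 rose and 6 fell (median 0.17), whereas of 83 cytosolic ribosomal protein genes 59 fell and 2 rose (median -0.23). The count of ribosomal protein genes that fell was 36 without replicate 4 of day 1 and 33 without replicate 1 of day 0, where the median was -0.13. The rRNA methyltransferase Nop2 and the assembly factor Tsr1 rose by 0.85 and 0.88, and Rpl3 fell by 0.59. The summed level of the ribosomal protein genes was 45892 to 49505 CPM at day 1 and 53256 to 64184 CPM at day 0, and their many processed pseudogenes may share these reads.

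The matrix changed in composition. Cilp, a matrix protein of cartilage and heart that binds TGF-beta, had 58.9, 40.9, 34.6 and 49.96 CPM in the day 1 libraries, against 1.31, 1.296, 0.899 and 0.929 CPM in the day 0 libraries. Every day 1 library exceeds every day 0 library, and the rise was the largest outside the muscle lists among genes at 10 CPM or more (log2 fold change 5.37, SE 0.16, adjusted p = 3.54e-16). Decorin, Dcn, a small proteoglycan that coats collagen fibrils, had 163, 165, 137 and 163 CPM in the day 1 libraries, against 12.03, 9.83, 9.41 and 8.36 CPM in the day 0 libraries, again with no overlap (log2 fold change 3.98, SE 0.09, adjusted p = 7.01e-18). Lumican, Lum, a relative of decorin, had 261 counts over the day 1 libraries and 2 counts over the day 0 libraries, a ratio of 111 (95% counting interval 30.5 to 924). In the family of small leucine-rich proteoglycans 5 of 11 rose and 1 fell. Biglycan, Bgn, and osteoglycin, Ogn, stood at 3003 CPM at day 1 against 2755 CPM at day 0 and 1062 CPM at day 1 against 1201 CPM at day 0, where Ogn passed the test (log2 fold change -0.18) and Bgn did not (log2 fold change 0.12). Neither call was stable: leaving out 1 of 5 libraries ended the call on Ogn (every day 1 library but replicate 2, and replicates 3 and 4 of day 0), and leaving out 1 of 5 brought Bgn past the threshold.

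Fibronectin, Fn1, which links cells to the matrix through integrins, gained more CPM than any other gene in the named set. It had 10750.4, 9854, 12082 and 11087 CPM in the day 1 libraries, against 4927, 8011, 6531 and 6975 CPM in the day 0 libraries. The lowest library of all is replicate 1 of day 0, and the days do not overlap (log2 fold change 0.73, SE 0.10, adjusted p = 4.52e-06). Fibrillar collagens diverged: Col3a1 rose by 0.20 and Col12a1, which associates with fibrils, by 0.76, while Col1a2 fell by 0.61 and Col5a2 by 0.77. Col1a2 averaged 3374 ± 191 CPM at day 1 and 5161 ± 407 CPM at day 0. Over the family, 13 of 32 collagen genes rose and 8 fell. Lox, the enzyme that cross-links collagen, and Serpinh1, the collagen chaperone, were among the 10 largest losses in CPM, with 1212 CPM at day 1 against 2071 CPM at day 0 and 1729 CPM at day 1 against 2377 CPM at day 0. Fibulins fell, with Fbln1, Fbln2 and Fbln5 lower by 0.98, 1.14 and 0.82.

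Matrix receptors and proteases were mixed. Itga10, the collagen receptor subunit of chondrocytes, averaged 11.4 ± 0.836 CPM at day 1 and 1.25 ± 0.337 CPM at day 0, and Itga1, another collagen receptor subunit, 8.53 ± 0.702 CPM at day 1 and 19.4 ± 1.59 CPM at day 0, so these 2 moved in opposite directions (log2 fold changes 3.18 and -1.19). Itgb1, the common beta chain, fell by 0.17 (1092 CPM at day 1 against 1229 CPM at day 0), a call lost without replicate 1 of day 1 or replicate 3 of day 0. Adamts1 and Adamts4, proteases of proteoglycans, rose by 1.22 and 1.41, and the membrane protease Mmp14 by 0.60, while Mmp11 fell by 1.20. Timp2, a protease inhibitor, averaged 680.2 ± 19.1 CPM at day 1 and 397 ± 10.03 CPM at day 0. The laminin chains Lama4 and Lama1 fell by 0.90 and 3.04.

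**Figure D4:**
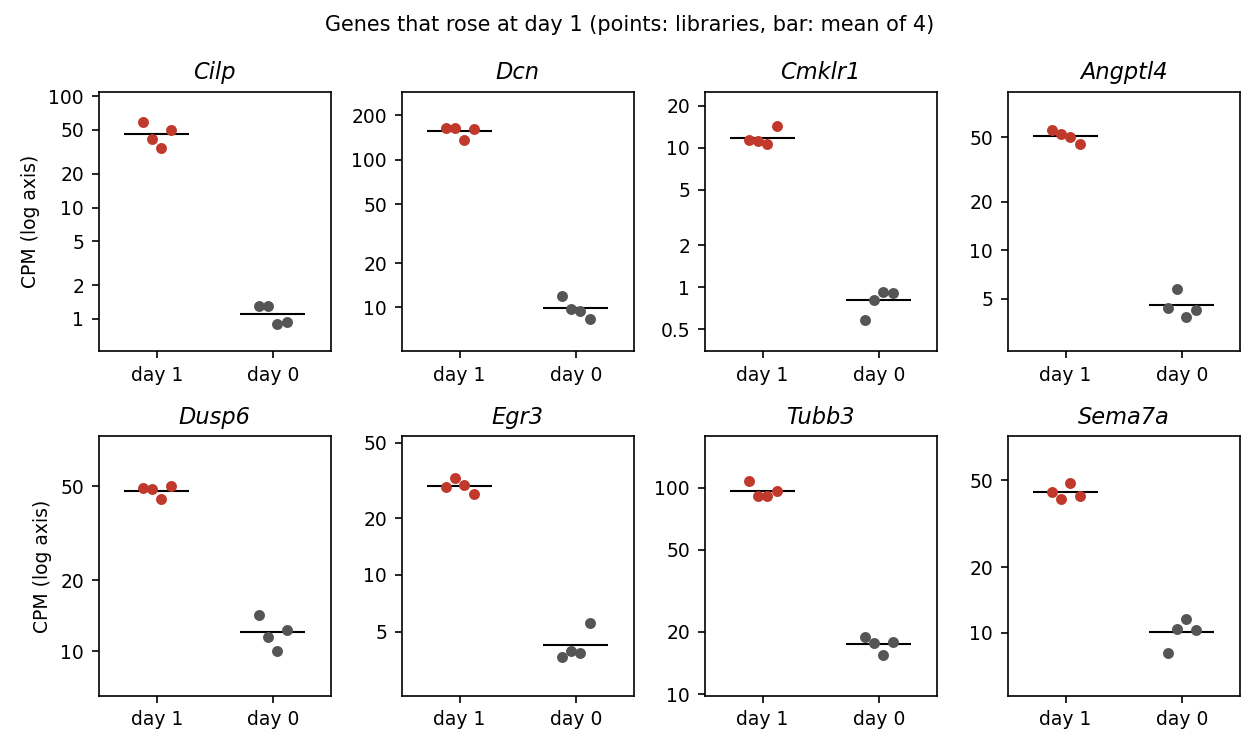
CPM of each library on a log axis for 8 genes that rose, day 1 at the left and day 0 at the right of each panel, with the mean of the 4 libraries as a bar. In all 8 genes the 4 day 1 libraries lie above the 4 day 0 libraries, for example 34.6 to 58.9 against 0.899 to 1.31 CPM for Cilp.

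Guidance genes rose more often than they fell. Semaphorins and their plexin receptors, and ephrins and their EPH receptors, steer axons and also the movement of other cells. Of 29 semaphorin and plexin genes 17 rose and 6 fell, 8 and 3 of them at least 2-fold. Sema7a, a membrane-anchored semaphorin, had 44.3, 40.9, 48.4 and 42.4 CPM in the day 1 libraries, against 8.06, 10.4, 11.6 and 10.4 CPM in the day 0 libraries, with no overlap (log2 fold change 2.13, SE 0.09, adjusted p = 6.61e-14). Sema3d, Sema5a and the receptor gene Plxna2 rose by 1.73, 1.62 and 1.84, while Sema4a fell by 1.61. Among ephrins and EPH receptors 11 of 17 rose and 2 fell, with Efnb2 at 104 ± 6.23 CPM at day 1 and 41.3 ± 5.42 CPM at day 0. Of the classical cadherins 5 of 9 rose and 0 fell. Those that rose included Cdh2, N-cadherin, at 50.7 ± 2.87 CPM at day 1 and 26.1 ± 4.07 CPM at day 0. Of 39 protocadherin genes 10 rose, close to the background share of 25.9%, and 0 fell, with Pcdh7 at 93.2 ± 3.99 CPM at day 1 and 37.4 ± 3.503 CPM at day 0, but genes of the clustered protocadherins share exons and their reads cannot be assigned with certainty. Other adhesion families were divided, with 1 of 6 claudins higher and 1 lower (0 without replicate 3 of day 1), and 3 of 7 connexins higher and 2 lower, both falls at least 2-fold.

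Cytoskeletal families differed in their counts. Tubulins had 4 of 16 higher and 6 lower, septins 1 of 10 higher and 4 lower, and kinesins 5 of 32 higher (3 without replicate 1 of day 0) and 18 lower. Of the targets of MRTF and SRF, which couple actin assembly to transcription, 19 of 30 rose and 4 fell (median 0.35). The count that fell was 2 with any 1 of 5 libraries left out (replicates 1, 2 and 3 of day 1, and replicates 2 and 4 of day 0). Zyxin, Zyx, a focal adhesion protein, averaged 553 ± 37.00 CPM at day 1 and 264 ± 12.1 CPM at day 0, and filamin A, Flna, 3221 ± 176 CPM at day 1 and 2167 ± 285 CPM at day 0. Smooth muscle actin, Acta2, which myoblasts also express, averaged 2693 ± 276 CPM at day 1 and 1639.8 ± 66.8 CPM at day 0, and the actin genes may share reads. Tubb3, the tubulin isotype of neurons, had 107, 91.2, 91.1 and 96.6 CPM in the day 1 libraries, against 18.998, 17.7, 15.5 and 17.9 CPM in the day 0 libraries, with no overlap (log2 fold change 2.46, SE 0.07, adjusted p = 1.01e-16). The neurofilament genes Nefm and Nefl rose by 2.26 and 1.51, whereas the synaptic gene Syt1 fell by 0.76 and Stmn2 did not pass the test (188 CPM at day 1 against 202 CPM at day 0).

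Chemokine genes moved in both directions, 6 of 20 higher and 5 lower, while their summed level was 1227 to 1422 CPM at day 1 and 2574 to 2778 CPM at day 0. Cxcl12, the ligand of CXCR4 that draws muscle progenitors, had 281, 291, 301 and 241 CPM in the day 1 libraries, against 1052, 1101, 1182 and 1086 CPM in the day 0 libraries. The days do not overlap (log2 fold change -1.99, SE 0.06, adjusted p = 4.03e-16), and the loss was among the 10 largest in CPM. Ccl9 and the neutrophil attractant Cxcl1 averaged 56.6 CPM at day 1 against 214 CPM at day 0 and 110.3 CPM at day 1 against 274 CPM at day 0, both lower, and the monocyte attractant Ccl2 rose by 1.12 (161 ± 9.76 CPM at day 1 and 73.8 ± 10.1 CPM at day 0). Cmklr1, the receptor of the attractant chemerin, had 11.3, 11.1, 10.5 and 14.2 CPM in the day 1 libraries, against 0.581, 0.814, 0.929 and 0.903 CPM in the day 0 libraries, with no overlap (log2 fold change 3.87, SE 0.15, adjusted p = 1.98e-14). Rarres2, which encodes chemerin, averaged 1.195 CPM at day 1 against 2.34 CPM at day 0 (log2 fold change -0.97), and in the list of chemerin, prostaglandin and adenosine signalling 10 of 19 fell, among them the prostaglandin receptor Ptger3 by 2.06. The acute-phase genes Orm1 and Serpina3g fell by 2.90 and 1.77, and Saa3 rose by 1.91. Interferon-stimulated genes were higher in 16 of 49 cases (32.7%, against 25.9% of all genes tested) and lower in 2. Their summed level was 2911 to 4051 CPM at day 1, within the range of 2285 to 4303 CPM at day 0. Oas2, a sensor of double-stranded RNA, averaged 32.3 ± 11.7 CPM at day 1 and 11.7 ± 3.92 CPM at day 0. Without replicate 1 of day 0 the interferon-stimulated genes that rose numbered 35.

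Lists of developmental pathways held members that moved in both directions. Of 21 Notch pathway genes 13 rose and 3 fell. The target genes Hes1 and Heyl rose by 1.62 and 2.71, and Rbpj, the DNA-binding partner of Notch, averaged 56.3 ± 1.25 CPM at day 1 and 114 ± 9.46 CPM at day 0 and fell. Of the WNT pathway 15 of 45 rose and 11 fell, with Axin2, a feedback target, higher by 1.00, the antagonist Dkk2 by 2.15, and the receptor Fzd4 lower by 1.99. In the TGF-beta and BMP list 19 of 49 rose and 13 fell. Tgfbr2, the ligand-binding receptor, averaged 439.7 ± 17.2 CPM at day 1 and 209.9 ± 20.05 CPM at day 0, and Gdf11, a ligand related to myostatin, 44.4 ± 2.096 CPM at day 1 and 18.7 ± 2.39 CPM at day 0. Of 11 Hedgehog pathway genes 5 rose and 1 fell. The fall was in Ptch1, the Hedgehog receptor and itself a target of the pathway, which averaged 21.3 ± 2.62 CPM at day 1 and 48.9 ± 6.16 CPM at day 0. Of 7 SOX factor genes 2 rose, Sox9 by 1.20 and Sox11 by 1.32, and 3 fell, 1 of them at least 2-fold. Of 22 HOX genes 7 fell, or 31.8% against 24.4% of all genes tested, 1 rose and 14 did not pass the test. Hoxa9 averaged 41.4 CPM at day 1 against 64.8 CPM at day 0. With 1 library left out, 0 to 3 HOX genes rose, and 4 fell without replicate 3 of day 1 or replicate 1 of day 0.

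Lipid genes moved in both directions. Angptl4, a secreted inhibitor of lipoprotein lipase, had 55.5, 52.03, 50.4 and 45.3 CPM in the day 1 libraries, against 4.396, 5.76, 3.87 and 4.25 CPM in the day 0 libraries, with no overlap (log2 fold change 3.48, SE 0.10, adjusted p = 7.78e-17). Lpl, the lipase itself, averaged 65.3 ± 2.51 CPM at day 1 and 118 ± 9.63 CPM at day 0, and Fabp4, a fatty acid carrier of adipocytes, 0.401 CPM at day 1 against 7.47 CPM at day 0. The fatty acid synthesis genes Fasn and Acly averaged 494 ± 42.2 CPM at day 1 and 211 ± 35.2 CPM at day 0 and 408 ± 17.5 CPM at day 1 and 248 ± 7.01 CPM at day 0. Both were higher at day 1 (log2 fold changes 1.23 and 0.72), while over the list 11 of 27 rose and 12 fell. Klf15, a glucocorticoid-induced regulator of fuel use, had 0.939, 1.25, 1.13 and 0.669 CPM in the day 1 libraries, against 15.3, 16.3, 16.9 and 15.1 CPM in the day 0 libraries, with no overlap (log2 fold change -3.99, SE 0.20, adjusted p = 1.06e-12). The glucocorticoid list was otherwise mixed, with 8 of 20 higher and 6 lower.

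Clock genes moved in both directions. Dbp, a target of the CLOCK and BMAL1 pair, had 5.44, 6.63, 5.34 and 5.02 CPM in the day 1 libraries, against 30.6, 30.9, 28.7 and 32.1 CPM in the day 0 libraries, with no overlap (log2 fold change -2.45, SE 0.11, adjusted p = 3.07e-13). Nr1d1, Nr1d2 and Per3 fell by 1.67, 0.99 and 1.23, and Cry1 rose by 1.02. Over the list 9 of 23 rose and 8 fell, and the labels give no clock time of harvest. Among heat shock genes 16 of 28 rose and 7 fell. Hspa1b had 52.9, 51.5, 55.5 and 52.4 CPM in the day 1 libraries, against 10.3, 7.24, 8.51 and 8.95 CPM in the day 0 libraries, with no overlap (log2 fold change 2.60, SE 0.09, adjusted p = 2.75e-15). Its neighbour Hspa1a is nearly identical and may share its reads. The co-chaperone Dnaja1 and the constitutive Hspa8 averaged 319 ± 15.4 CPM at day 1 and 152 ± 10.5 CPM at day 0 and 1427 ± 58.2 CPM at day 1 and 870.4 ± 50.6 CPM at day 0, and Hsp90ab1 fell slightly (2910.1 CPM at day 1 against 3470.1 CPM at day 0).

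Among other leading rises, Camk1g, a calcium-calmodulin kinase, averaged 43.97 ± 4.68 CPM at day 1 and 4.59 ± 0.673 CPM at day 0, Gfra1, the GDNF receptor, 14.6 ± 1.11 CPM at day 1 and 1.56 ± 0.481 CPM at day 0, and Hdc, which makes histamine, 16.3 ± 1.31 CPM at day 1 and 1.89 ± 0.6698 CPM at day 0 (log2 fold changes 3.26, 3.20 and 3.10). C1qtnf3, a secreted relative of adiponectin, averaged 15.7 ± 3.27 CPM at day 1 and 2.78 ± 0.562 CPM at day 0 and reached 329 ± 5.49 CPM at day 6. Rasl11a, a RAS-like gene, was a leading fall with 1.68 ± 0.7803 CPM at day 1 and 14.98 ± 1.46 CPM at day 0. Genes were also grouped by the letters before the first digit of their symbols, over 250 groups of 8 or more tested genes. The largest shares at least 2-fold higher were 3 of 8 in Ces (carboxylesterases), 3 of 8 in Kbtbd and 3 of 9 in Ccl, and the largest shares at least 2-fold lower were 4 of 8 in Serpina, 4 of 10 in Car, and 3 of 9 in each of Atf and Dhrs. These groups were ranked by the values they are described with.

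**Figure D5:**
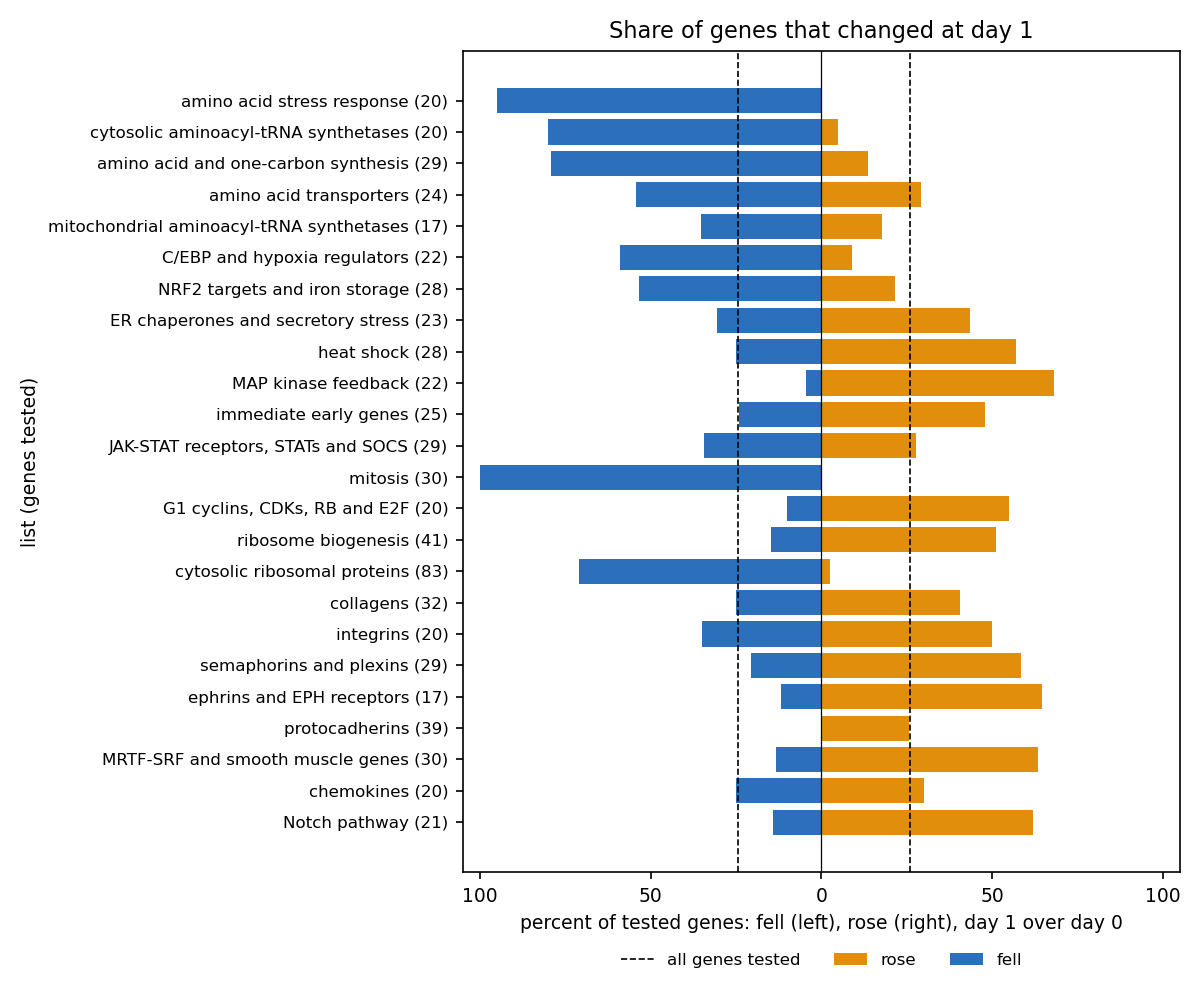
Percent of tested genes that rose (bars to the right) and fell (bars to the left) in 24 lists and families, day 1 over day 0, with the shares over all 17065 genes as dashed lines at 25.9% and 24.4%. Mitosis (100%), amino acid stress (95%) and cytosolic tRNA synthetases (80.0%) have the longest bars to the left, and MAP kinase feedback (68.2%) the longest to the right.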

How the data were processed

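Messenger RNA of C2C12 cells was sequenced in 4 libraries a day. Per the labels' protocols it was captured on poly-T beads. The authors deposited whole-number read counts per gene in 1 table, and the submitters' processing notes name featureCounts 2.0.6, StringTie 2.2.3, HISAT2 2.2.1 and fastp, with mm10 among the builds. No source used here gives the annotation release or the strand setting, so reads of overlapping and antisense genes may be shared.

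From the deposited counts, all 12 C2C12 libraries were fitted with edgeR 4.0.16 in R 4.3.3 (filterByExpr, TMM, 1 coefficient a day, quasi-likelihood test, Benjamini-Hochberg adjustment, threshold 0.05). CPM and log2 fold changes were computed from those deposited counts, and CPM does not correct for gene length. SE is the size of the log2 fold change over the square root of F. Where a group had 2 counts or fewer, a ratio of CPM with an exact counting interval, which covers counting error only, is given. 959 table entries share a symbol with another (0.154% of counts), and in 3 such cases the list member is the entry with over 99% of its symbol's counts. The code was tested on simulated data.

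The members, 58 gene lists and 54 families were chosen with earlier results of these data known. Named genes follow a rule. Among genes outside the muscle lists at 10 CPM or more with no overlap, it takes the 15 highest and 15 lowest fold changes and the 10 largest gains and losses in CPM. In each list it takes up to 8 members by fold change at 1 CPM or more and 4 by level, and exceptions are named as such. Libraries with the same replicate number in the days did not deviate together (correlation -0.03 to 0.01), and those with different numbers gave -0.03 to 0.03. This does not show whether libraries with the same number shared a culture, and the labels do not say. Alternatives were other filters, DESeq2 1.42.0, its size factors, the 8 libraries alone, a replicate block and leaving out each library. The human libraries were not used here.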

Additional observations from a re-analysis of the deposited data

Results flagged for a closer look

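For each gene named in the text, the highest or lowest library of a day was set against the other 3, and 28 of 372 groups of 4 libraries held 1 library whose gap to its nearest neighbour relative to the range of the group was over Dixon's critical value for 4 values. Chance alone gives about 1 such group in 20, and no cause was tested.

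At day 1, 1 library stood low for Acly (382 CPM in replicate 2, against 415 to 419 CPM), Col12a1 (1122 CPM in replicate 2, against 1269 to 1292 CPM) and Dcn (137 CPM in replicate 3, against 163 to 165 CPM). A low library was also seen for Efnb2 (94.998 CPM in replicate 1, against 106 to 109 CPM), Gfra1 (12.9 CPM in replicate 1, against 14.9 to 15.3 CPM) and H19 (123 CPM in replicate 3, against 146 to 149 CPM). A low library was also seen for Jun (88.00 CPM in replicate 4, against 98.9 to 101 CPM), Pcdh7 (87.2 CPM in replicate 1, against 94.6 to 95.6 CPM) and Pim1 (8.54 CPM in replicate 4, against 10.6 to 11.03 CPM). A low library was also seen for Sema4a (1.47 CPM in replicate 2, against 2.03 to 2.14 CPM), Slc38a2 (860.2 CPM in replicate 3, against 925 to 934 CPM) and Vegfa (122 CPM in replicate 1, against 136 to 137 CPM). A low library was also seen for Wt1 (0 CPM in replicate 1, against 0.04604 to 0.0515 CPM). At day 1, 1 library stood high for Chac1 (6.196 CPM in replicate 1, against 3.99 to 4.21 CPM), Gdf11 (47.5 CPM in replicate 3, against 43.1 to 43.9 CPM) and H1f0 (276 CPM in replicate 3, against 256 to 258 CPM). A high library was also seen for Kif15 (43.3 CPM in replicate 4, against 40.1 to 40.5 CPM), Kif1c (210.0 CPM in replicate 3, against 179.6 to 184 CPM) and Lama1 (1.01 CPM in replicate 1, against 0.552 to 0.592 CPM). A high library was also seen for Lrp2 (0.0515 CPM in replicate 4, against 0 CPM) and Mmp11 (55.9 CPM in replicate 1, against 48.6 to 49.5 CPM).

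At day 0, 1 library stood low for Dnaja1 (137 CPM in replicate 2, against 157 to 158 CPM) and Slc6a6 (169.6 CPM in replicate 1, against 201 to 207 CPM). At day 0, 1 library stood high for Ccl2 (88.8 CPM in replicate 1, against 68.02 to 70.1 CPM), Egr3 (5.601 CPM in replicate 4, against 3.66 to 3.95 CPM) and Lum (0.0603 CPM in replicate 2, against 0 CPM). A high library was also seen for Nop2 (33.1 CPM in replicate 4, against 29.9 to 30.3 CPM) and Qars (169 CPM in replicate 1, against 159.9 to 161 CPM).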

How the results depend on the processing

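Each of the 4 counts of changed genes stayed within 1.5 times its value under the 14 alternatives tried. Against 4421 genes higher and 4161 lower, no filter on low counts gave 4558 and 4037, at least 1 CPM in 4 libraries 4118 and 4123, DESeq2's size factors 4559 and 4038, the DESeq2 Wald test 4662 and 4177, and the 8 libraries alone 4305 and 4203. With 1 library left out, 4529 to 4759 genes were higher and 3494 to 3564 lower, and the median over all genes was 0.03 to 0.04 in place of -0.01 (the cause was not tested). Changes of at least 2-fold then numbered 840 to 915 higher and 857 to 924 lower.

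Whether the replicate numbers pair the libraries of the days is not stated. The fit with a replicate block gave 4297 genes higher and 4129 lower, with 741 and 962 at least 2-fold.

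Of 185 genes named and tested, 8 changed their call under at least 1 alternative and none reversed. They were Avil, Bgn, Itgb1, Junb, Mki67, Ogn, mt-Co1 and Qars, which passed the test (adjusted p = 0.0401) with the filter of 1 CPM and in no other fit. The list medians printed above kept their sign under each alternative. Genes under about 1 CPM rest on few reads, and a count of 0 in a day allows up to 0.0178 CPM at day 1 and 0.0209 CPM at day 0.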

Other observations

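Kinesins, the motors that walk along microtubules, fell more often than they rose, with 18 of 32 lower and 5 higher. Their median was -0.27 on the log2 scale, and 3 rose without replicate 1 of day 0. The mitotic motors Kif15 and Kif22 averaged 41.1 ± 1.505 CPM at day 1 and 79.1 ± 4.25 CPM at day 0 and 49.9 ± 2.16 CPM at day 1 and 80.6 ± 4.27 CPM at day 0, and Kif1c, a motor that carries cargo, rose by 0.63. Targets of YAP and TEAD, which answer tension and crowding, were split: 13 of 21 rose and 5 fell. Ankrd1, which myotubes also express, averaged 149.7 ± 8.12 CPM at day 1 and 73.9 ± 2.86 CPM at day 0, whereas Amotl2 and Ccn1 fell by 0.77 and 0.55 on the log2 scale.

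In the list of IGF ligands, receptors and binding proteins 10 of 19 rose and 5 fell. The count that fell was 3 with any 1 of 6 libraries left out, which were replicates 1, 3 and 4 of day 1 and replicates 2, 3 and 4 of day 0. H19, an imprinted noncoding RNA next to Igf2, averaged 142 ± 12.6 CPM at day 1 and 55.3 ± 2.22 CPM at day 0, and Igf1 112 ± 11.6 CPM at day 1 and 73.4 ± 2.65 CPM at day 0. Transcripts of the mitochondrial genome rose in 9 of 16 cases and fell in 2. Mt-Nd5 and mt-Cytb, subunits of the respiratory chain, rose by 0.47 and 0.40, and mt-Co1 fell by 0.17. Without replicate 1, 3 or 4 of day 1 or replicate 2 of day 0, 0 mitochondrial transcripts fell, and 1 fell without replicate 1, 3 or 4 of day 0. The call on mt-Co1 was also lost without replicate 4 of day 0 (adjusted p = 0.0524 to 0.103 over the 5 libraries that end it). Nuclear genes of the mitochondrial ribosome fell in 33 of 80 cases and rose in 9, with Mrpl33 at 39.5 ± 1.49 CPM at day 1 and 80.9 ± 5.43 CPM at day 0. Over all genes tested 25.9% rose and 24.4% fell.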
